A study of Rattus norvegicus with 10 samples.

Results

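Enpp2, 1 gene of the 32883 in the deposited count table, encodes autotaxin, and its level was followed in CD11b+ cells sorted from the rat striatum after hemorrhage. The table gives Ensembl identifiers without names, and the row taken as Enpp2 is ENSRNOG00000004089. Its name rests on its pattern over the libraries, which follows the row named Enpp2 in the study's own expression table. Enpp2 was picked with the results of these libraries known. In the fit made here it had the smallest unadjusted p of the 12199 genes tested between the groups (edgeR's quasi-likelihood test, adjusted p = 0.191). Its difference between the groups is therefore given as a description, without a test.

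Autotaxin is a secreted enzyme that cleaves choline from lysophosphatidylcholine and so produces lysophosphatidic acid (LPA), a signaling lipid. LPA acts on G protein-coupled receptors (the Lpar genes) and is broken down by lipid phosphatases of the cell surface. In the brain, Enpp2 is known as a gene of the choroid plexus epithelium and of oligodendrocytes, and macrophages and microglia can express it as well.

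The libraries came from male Sprague-Dawley (SD) rats, 12 weeks old, with intracerebral hemorrhage (ICH) made by 0.23 U of bacterial collagenase in the right striatum. In the ICH+Saline group saline was given, and in the ICH+rhCDNF group recombinant human CDNF, a protein of the endoplasmic reticulum with neurotrophic effects. The study describes a single injection into the ventricle 1 h after ICH, at a selected dose of 5 μg rhCDNF that is not restated for the sequenced rats. On day 3 the striatum was dissociated, myelin was removed with beads, and CD11b+ cells, which are microglia and infiltrating myeloid cells, were collected on magnetic columns. There were 5 libraries in each group, named here by the index in their column. Libraries S1 to S5 are the ICH+Saline group, and the ICH+rhCDNF group is S6 to S10. The group of each column comes from the headings of the study's expression table, since the columns carry no group name. No unoperated or sham-operated rats were among these samples.

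Total counts ranged from 14376582 to 16784638 per library in the saline group and from 14396256 to 16650476 in the rhCDNF group. Levels are given as CPM, the counts of a gene scaled to a common library size. Library S8 stood apart in red-cell transcripts, with 854 CPM of the alpha-globin gene Hba-a1 against 11.0 to 42.8 CPM in the other rhCDNF libraries and 8.65 to 21.4 CPM in the saline libraries. CD11b itself (Itgam) and the other 4 general myeloid genes listed were not matched to identifiers, so that the sort was not checked by them. The myeloid receptor gene Csf1r had 2210 CPM or more in every library. Library S6 held the lowest level of all libraries for each of the phagocyte genes Apoe, Gpnmb, Cd63, Spp1 and Clec7a. The fold change of Enpp2 and its correlations with other genes are given with and without these 2 libraries.

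Enpp2 was higher in each CD11b+ library from rhCDNF-treated rats than in any library from saline-treated rats, by 1.38-fold on average. The raw counts were 526, 462, 454, 493 and 470 in the saline libraries S1 to S5. They were 814, 612, 584, 644 and 673 in the rhCDNF libraries S6 to S10. Every rhCDNF library thus had more Enpp2 reads than every saline library before any scaling. Scaled to library size and composition (TMM), the saline libraries had 31.0, 30.8, 29.7, 33.9 and 33.6 CPM. The rhCDNF libraries had 47.6, 40.8, 40.4, 42.5 and 47.1 CPM. The saline values were close together, and among the rhCDNF values S6 and S10 stood above S7, S8 and S9. The group means were 31.8 ± 1.86 CPM and 43.7 ± 3.45 CPM (SD, n = 5 each), and the lowest rhCDNF library lay 1.19 times above the highest saline library. In the fit over all genes Enpp2 had a log2 fold change of 0.46 (SE 0.066). Over all genes tested, 0.975% had CPM values that did not overlap between the groups with the rhCDNF libraries higher, and Enpp2 was chosen from these data with that known. In such bulk samples, more cells that express a gene and more of its RNA per cell cannot be told apart.

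**Figure D1:**
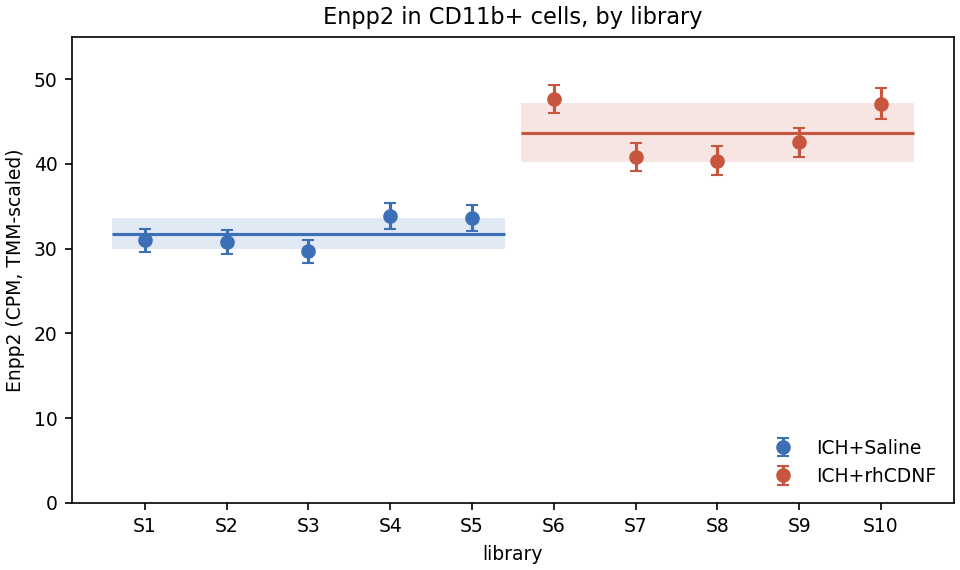
Enpp2 in CPM (y axis) for each of the 10 libraries (x axis), with ICH+Saline in blue and ICH+rhCDNF in red. Points are libraries with bars of 1 counting (Poisson) error, lines are group means and bands are 1 SD over 5 libraries. The 5 rhCDNF libraries sit between 40.4 and 47.6 CPM, above the 5 saline libraries at 29.7 to 33.9 CPM.

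The spread of Enpp2 between rats was small. The coefficient of variation was 5.86% in the saline group and 7.89% in the rhCDNF group, where counting error alone gives 3.51% to 4.69% for the reads of 1 library. On the log2 CPM scale the SD within groups, pooled over both, was 0.099. Of the 500 genes nearest to Enpp2 in mean CPM (34.4 to 41.3 CPM), 36.4% had a smaller pooled SD, and their median was 0.11. The spread of Enpp2 was thus ordinary for its read number. The same 500 genes had a median absolute log2 fold change of 0.077, and 11 of them had a larger one than Enpp2. Among all 12199 genes, 653 (5.35%) had a larger absolute log2 fold change than Enpp2. Enpp2 was picked with the difference between the groups known, and nothing further is read from these values.

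The size of the difference did not rest on 1 library, as is likely for a gene picked with this difference known. When each library was left out in turn, the log2 fold change of Enpp2 ranged from 0.43, without S6, to 0.49, without S8. Without S6 and S8 together it was 0.45. Scaling by DESeq2 size factors, by the upper quartile or by total counts gave 0.46 each, and the CPM values of the groups did not overlap under any of these 3 scalings. Over the whole table, at an adjusted p under 0.05, the quasi-likelihood test of edgeR called 0 of the 12199 genes higher (0%) and 0 lower, against 841 higher and 670 lower at an unadjusted p under 0.05. DESeq2 called 8 genes higher (0.0656%), edgeR's likelihood ratio test called 3 (0.0246%) and limma voom called 0, and none of them called a gene lower.

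**Figure D2:**
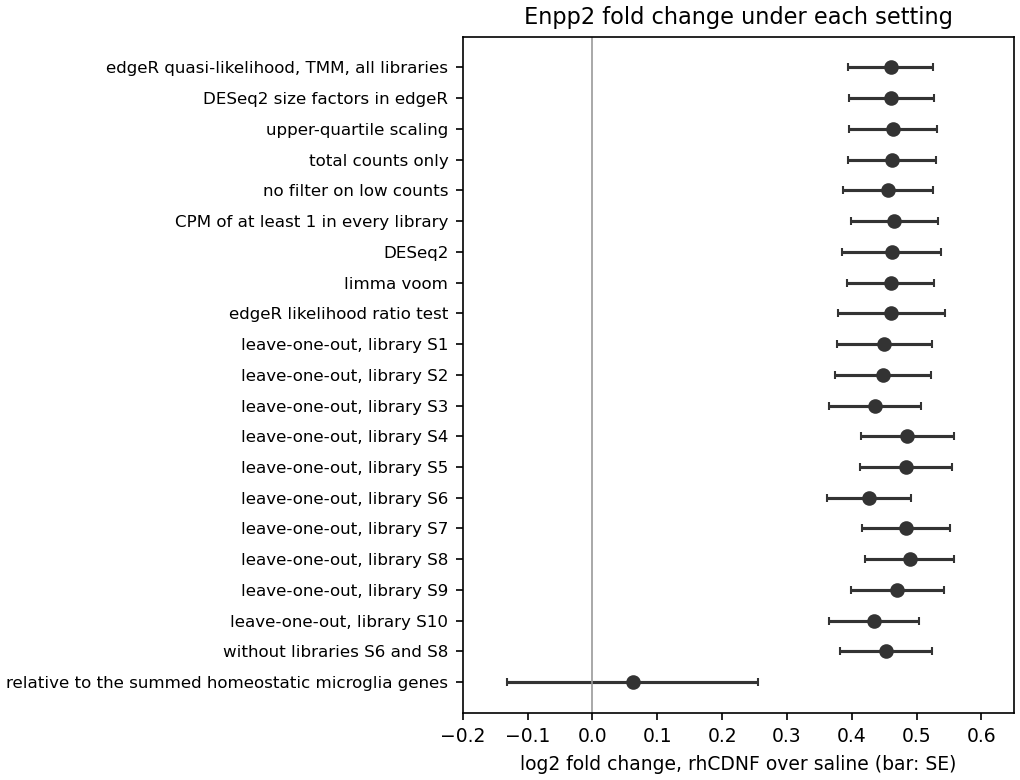
Log2 fold change of Enpp2 between ICH+rhCDNF and ICH+Saline (x axis) under each setting (y axis), with bars of 1 standard error. All fits to the whole library lie between 0.43 and 0.49, and the value relative to the summed microglia genes lies at 0.062.

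The other genes of the autotaxin and LPA pathway could be described only in part, because names could be tied to identifiers only for genes in the rows of the study's table with the smallest p-values. Of 28 pathway genes listed, 4 were matched, and no LPA receptor or LPA phosphatase was among them. Since matched genes come from those rows, a larger share of them differs than of genes in general. None of the 4 was called by edgeR's quasi-likelihood test (adjusted p from 0.372 to 0.609), by DESeq2 or by the likelihood ratio test. At an unadjusted p under 0.05, 2 were higher and 0 lower, where 6.89% of all genes tested were higher. The median log2 fold change of the 4 was 0.29, against 0.00093 over all genes tested.

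Agpat3, an acyltransferase that can use LPA as a substrate, was at 57.8 ± 7.14 CPM in the saline group and 69.1 ± 8.25 CPM in the rhCDNF group (SD, n = 5 each; log2 fold change 0.26, SE 0.098). Lpcat2, which acylates lysophosphatidylcholine, the substrate of autotaxin, was at 138 ± 13.7 CPM and 172 ± 37.2 CPM (SD, n = 5 each; log2 fold change 0.32, SE 0.13). The groups overlapped for both genes. Enpp6, a choline phosphodiesterase of the same family that is known from newly forming oligodendrocytes, was at 5.96 ± 2.80 CPM and 11.3 ± 6.82 CPM (SD, n = 5 each; log2 fold change 0.93, SE 0.46). Its rhCDNF values ran from 2.35 CPM in S8 to 18.8 CPM in S6, so that the lowest and the highest of all libraries were both in that group. Enpp3, an ectoenzyme of nucleotide hydrolysis, had a lower mean in the rhCDNF group, at 108 ± 17.2 CPM and 86.5 ± 40.8 CPM (SD, n = 5 each; log2 fold change -0.33, SE 0.27). Both of these family members overlapped between the groups.

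Markers of the cells that can contribute Enpp2 RNA were set beside it. Of 76 marker genes listed, 27 were matched and tested, again from rows chosen for small p-values. None was called by edgeR's quasi-likelihood test (adjusted p from 0.365 to 0.573), by DESeq2 or by the likelihood ratio test, and at an unadjusted p under 0.05 there were 9 higher and 6 lower. Over all genes tested, 6.89% were higher and 5.49% lower at that level.

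Of 12 genes of homeostatic microglia listed, 9 were matched, and these come from rows chosen for small p-values. For all 9 the log2 fold change was positive, with a median of 0.47, where Enpp2 had 0.46. 5 of the 9 were higher at an unadjusted p under 0.05. Sall1, a transcription factor of microglial identity, was at 208 ± 25.3 CPM and 334 ± 128 CPM (SD, n = 5 each; log2 fold change 0.68, SE 0.21). P2ry12, the purinergic receptor of resting microglia, was at 138 ± 17.7 CPM and 204 ± 69.0 CPM (SD, n = 5 each; log2 fold change 0.57, SE 0.20). Gpr34, a lysophosphatidylserine receptor of microglia, was at 139 ± 17.6 CPM and 169 ± 36.7 CPM (SD, n = 5 each; log2 fold change 0.28, SE 0.14). Unlike for Enpp2, the groups overlapped for each of the 9. For each of the 9, S6 and S9 were the highest of all libraries. Sall1 was at 521 and 414 CPM in S6 and S9, and at 239, 223 and 275 CPM in S7, S8 and S10 (saline 178 to 246 CPM). Cx3cr1 was at 513 and 492 CPM in S6 and S9, and at 303, 278 and 339 CPM in S7, S8 and S10 (saline 298 to 327 CPM). The summed level of the 9 genes ran from 5059 to 6468 CPM in the saline libraries and from 5613 to 10414 CPM in the rhCDNF libraries.

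The oligodendrocyte marker Mog was among the named rows used but was not above 0 in every library there. It was therefore not matched to an identifier, and no value is given for it. The study reports scant expression of the oligodendrocyte genes Mag, Mog and Olig1 in its sorted cells. Among the 11 oligodendrocyte genes listed, 1 was matched. This was Cnp, a phosphodiesterase of myelin that microglia also express. It had 88.1, 99.3, 90.4, 92.0 and 94.1 CPM in the saline libraries and 165, 103, 85.9, 141 and 99.8 CPM in the rhCDNF libraries. S6 and S9 were the highest, S8 was the lowest of all, and the groups overlapped. The means were 92.8 ± 4.27 CPM and 119 ± 32.9 CPM (SD, n = 5 each; log2 fold change 0.36, SE 0.15; edgeR quasi-likelihood, adjusted p = 0.388). Of the precursor genes, Cspg4 was at 100 ± 19.4 CPM and 124 ± 16.4 CPM (SD, n = 5 each; log2 fold change 0.31, SE 0.13). Sox10 was rare, at 1.44 ± 0.77 CPM and 0.88 ± 0.27 CPM (SD, n = 5 each; log2 fold change -0.70, SE 0.36), with 9 to 33 counts per library. The part of oligodendrocyte RNA in the level of Enpp2 was not tested.

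Of 8 choroid plexus genes, only Slc4a5, a bicarbonate transporter, was matched, so that the defining genes Ttr, Kl and Folr1 were not described. Slc4a5 was at 141 ± 19.5 CPM in the saline group and at 107 ± 28.2 CPM in the rhCDNF group (SD, n = 5 each; log2 fold change -0.40, SE 0.18). Like the phagocyte genes, it was lowest in S6, at 60.0 CPM, and whether it marks choroid plexus in these libraries was not tested. The part of choroid plexus RNA in the level of Enpp2 was not tested. 3 of the 4 matched monocyte and macrophage genes, F5, Emilin2 and Ms4a7, and all 5 genes of disease-associated phagocytes had negative log2 fold changes too. The medians of these lists were -0.33 and -0.31. The remaining monocyte and macrophage gene, F10, went the other way, with a log2 fold change of 0.65 (SE 0.36). It was at 12.1 ± 2.12 CPM and 18.8 ± 12.8 CPM (SD, n = 5 each), and highest in S6 at 39.7 CPM. For Apoe, Gpnmb and Cd63, of the phagocyte list, every rhCDNF library was lower than every saline library, as for 1.26% of all genes tested. The astrocyte genes Slc1a2 and Gfap and the endothelial gene Vwf had positive log2 fold changes of 0.62, 0.43 and 0.38 with standard errors of 0.37, 0.31 and 0.29. No gene of neurons or of mural cells was matched.

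**Figure D3:**
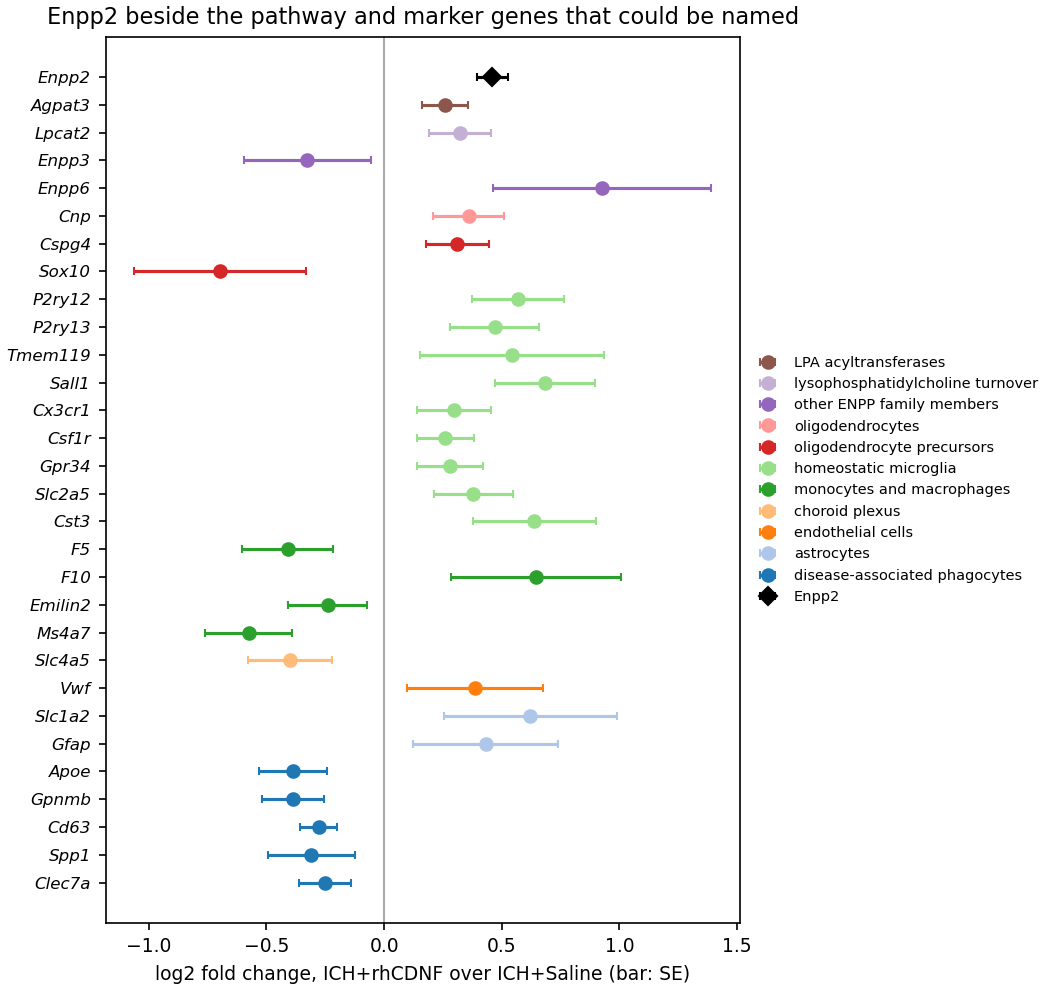
Log2 fold change between ICH+rhCDNF and ICH+Saline (x axis) of Enpp2 and of the matched pathway and marker genes (y axis), colored by list, with bars of 1 standard error. The red-cell genes Hba-a1 and Hbb, at 3.52 and 3.27, are left out of the plot. Enpp2 lies at 0.46, within the range of the 9 homeostatic microglia genes (0.26 to 0.68) and with a shorter bar than any of them.

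Set against the microglia genes of the same library, Enpp2 no longer separated the groups. Csf1r and Cst3, with saline means of 2412 and 2160 CPM, made up most of the summed counts of the 9 homeostatic microglia genes. Each of the other genes had a saline mean of at most 314 CPM. Per 1000 summed counts of the 9 genes, the saline libraries S1 to S5 held 6.13, 5.73, 5.50, 5.24 and 5.93 counts of Enpp2. The rhCDNF libraries S6 to S10 held 4.61, 7.03, 7.20, 4.08 and 7.80. In the rhCDNF group, S6 and S9 were below every saline library and the other 3 were above every one. The part of the microglial share of the cells in the level of Enpp2 was not tested further. The log2 ratio between the groups fell to 0.062 on this scale, with a standard error of 0.19. Relative to each of the 9 genes alone, the log2 ratio ran from -0.15 for Sall1 to 0.21 for Csf1r, the receptor of colony-stimulating factor, and the groups overlapped for each. It was -0.064 relative to Cst3, -0.055 relative to P2ry12, 0.20 relative to Gpr34 and 0.21 relative to Cx3cr1. For Csf1r, S9 was below all saline libraries and the other 4 rhCDNF libraries were above them. Relative to Cnp the log2 ratio was 0.14, and the groups overlapped. The SD of the ratio to the 9 microglia genes was 0.349 in the saline group and 1.67 in the rhCDNF group.

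**Figure D4:**
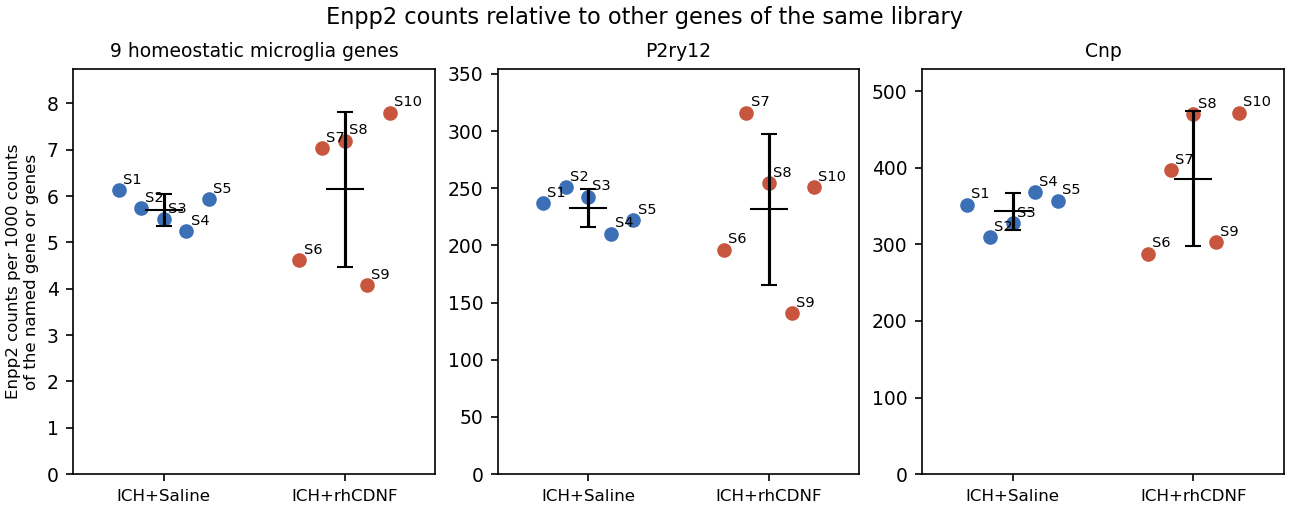
Enpp2 counts per 1000 counts (y axes) of the 9 homeostatic microglia genes, of P2ry12 and of Cnp in the same library, by group (x axes). Points are libraries and black marks are means with 1 SD over 5 libraries. S6 and S9 lie below all saline libraries in each panel, while S7 lies above them.

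Whether Enpp2 followed these genes from rat to rat was asked within the groups. For each gene, the deviation of log2 CPM from the mean of its group was taken in the 10 libraries. It was correlated with that of Enpp2 by an exact two-sided permutation test over 14400 arrangements within the groups. Of 31 genes compared, 1 reached an unadjusted p under 0.05 and 0 passed after adjustment over the 31 (smallest adjusted p = 0.465). The correlation was positive for 9 of the 9 homeostatic microglia genes, with r from 0.19 for Tmem119 to 0.81 for Gpr34 and a median of 0.51, while over all genes tested it was positive for 50.3% with a median of 0.0045. The microglia genes share their libraries and vary together, so they are not separate observations. Without S6 and S8, it was positive for 7 of the 9, with a median of 0.29.

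Gpr34 followed Enpp2 most closely of the 31. Its r was 0.81 (exact permutation p = 0.0258, adjusted 0.465, n = 10 libraries) and its rho was 0.77 (exact permutation p = 0.0439, adjusted 0.556). Without S6 and S10, the libraries farthest from the median of Enpp2, its r was 0.76, and without S6 and S8 it was 0.73. P2ry12 had an r of 0.55 (exact permutation p = 0.187, adjusted 0.465) and a rho of 0.75 (p = 0.0533, adjusted 0.556), with an r of 0.61 without S6 and S10 and of 0.41 without S6 and S8. Sall1 had an r of 0.61 (exact permutation p = 0.144, adjusted 0.465) and a rho of 0.59 (p = 0.173, adjusted 0.556), with an r of 0.59 without S6 and S10. Its r was 0.41 without S6 and 0.29 without S6 and S8. At the low end of the list, Cst3 had an r of 0.39 (exact permutation p = 0.346, adjusted 0.487) and Tmem119 one of 0.19 (exact permutation p = 0.665, adjusted 0.687). Their rho was 0.45 (exact permutation p = 0.296, adjusted 0.574) and 0.22 (exact permutation p = 0.572, adjusted 0.651). Without S6 and S10 their r was 0.42 and 0.34, and without S6 and S8 it was -0.046 and -0.0067. The correlations thus depended on S6 and S8, without which most were weaker, and on S9, without which they were stronger. S9 was high in microglia genes and near its group mean in Enpp2. Without S9, 4 of the 31 genes had an adjusted p under 0.05, all of them microglia genes, against 0 with any other single library left out. S9 ran against the correlation with Gpr34, and the choice of this library was not adjusted for. No conclusion is drawn from these p-values. They were Gpr34 with an r of 0.97, P2ry12 with 0.89, Csf1r with 0.79 and Cx3cr1 with 0.71 (exact permutation, adjusted p = 0.0404 each, n = 9 libraries). By rho none of the 4 passed (adjusted p from 0.0718 to 0.159).

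For Cnp and Enpp6 no correlation passed, and their difference from the microglia genes was not tested. Cnp had an r of 0.44 (exact permutation p = 0.323, adjusted 0.476) and a rho of 0.41 (p = 0.343, adjusted 0.575), with an r of 0.33 without S6 and S10. Its r was 0.11 without S6, 0.24 without S8, 0.67 without S10 and -0.17 without S6 and S8, so that no direction is given for it. Enpp6 had an r of 0.25 (exact permutation p = 0.601, adjusted 0.667) and a rho of 0.32 (p = 0.441, adjusted 0.594), and its r was -0.21 without S6 and S10, -0.17 without S8 and -0.42 without S6 and S8. The correlation was negative for all 5 genes of disease-associated phagocytes, from -0.52 for Gpnmb to -0.27 for Clec7a, and for both globin genes (adjusted p by the exact permutation test from 0.465 to 0.670). Without S6, 2 of the 5 phagocyte genes had a positive r, and without S8, 1 of the 2 globin genes had one.

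**Figure D5:**
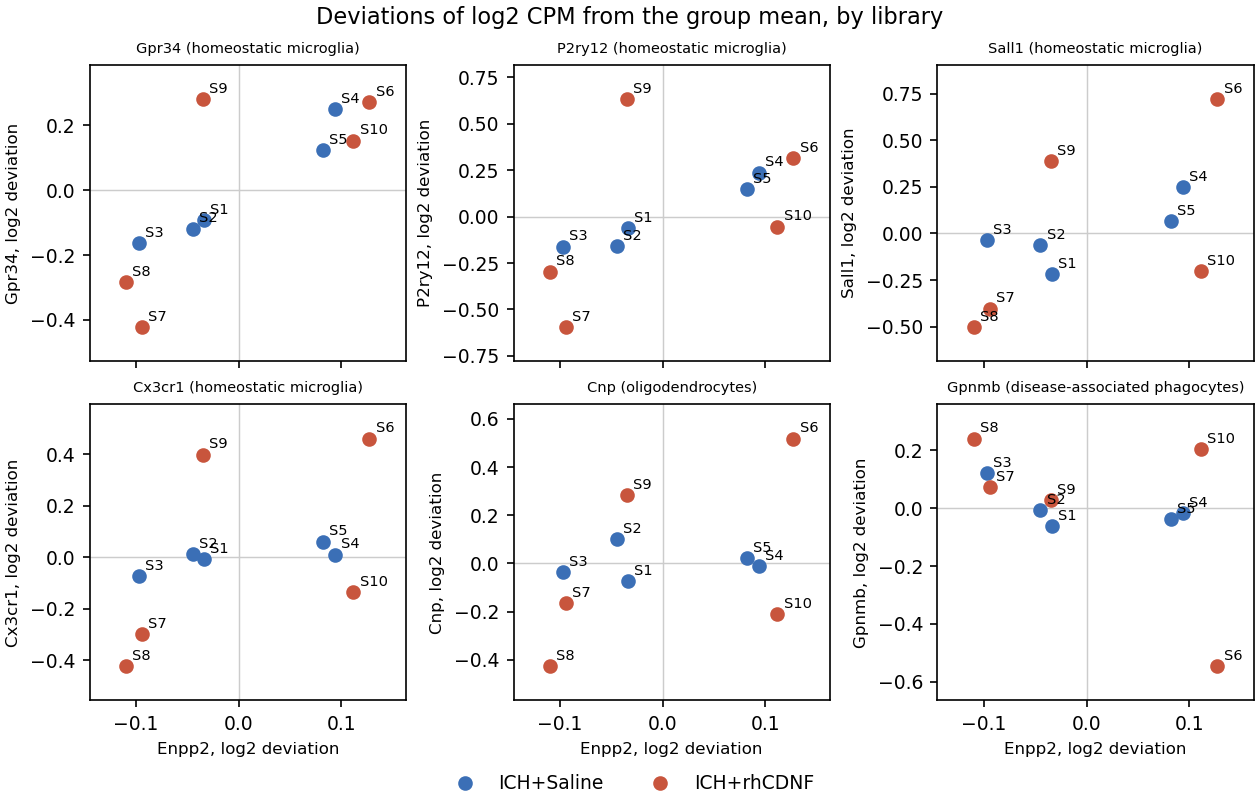
Deviation of Enpp2 from its group mean (x axes, log2 CPM) against that of Gpr34, P2ry12, Sall1, Cx3cr1, Cnp and Gpnmb (y axes, log2 CPM), with ICH+Saline libraries in blue and ICH+rhCDNF libraries in red. For Gpr34 (r of 0.81) only S9 has deviations of opposite sign in the 2 genes, while for Sall1 (r of 0.61) S9 and S10 do.

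Over all 10 libraries, the 5 named genes most like Enpp2 in log2 CPM, of 777 compared, were Fndc1, Unc79, Kifc2, Ccdc93 and Atm, with r from 0.87 to 0.91. These values include the difference between the groups, by which rows for naming were ordered, and are given without a test. Unc79, a subunit of a neuronal sodium leak channel, was at 22.4 ± 3.45 CPM in the saline group and 32.1 ± 4.52 CPM in the rhCDNF group (SD, n = 5 each). Fndc1 was rarer, at 0.92 ± 0.31 and 2.07 ± 0.43 CPM (SD, n = 5 each). After the group means were removed, the 5 most alike were Evc, a protein of the primary cilium, Atm, a kinase of the DNA damage response, Gpr34, LOC102546648 and LOC680254, with r from 0.78 to 0.88. Atm was the only gene on both lists. It was at 371 ± 40.1 CPM and 431 ± 29.0 CPM (SD, n = 5 each; log2 fold change 0.22, SE 0.079; edgeR quasi-likelihood, adjusted p = 0.371).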

How the data were processed

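CD11b+ cells of 10 rats were sequenced as directional single-end libraries after ribosomal depletion. The submitters' processing notes name Trimmomatic 0.36, STAR, Subread 1.6.4 with featureCounts, and the build Rnor_6.0, by which the authors obtained reads per Ensembl gene. What was deposited is the raw count of each gene, without normalization by the authors. All 10 columns were used, each assigned to its group.

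No table used here pairs the identifiers with names, and 0 matched the gene table provided. A name of the paper's supplementary expression table was tied to an identifier where, each was the other's best partner by the spread (SD) of their log2 ratio over the 10 libraries, and the next was at least 1.5 times as large. This tied 789 of the 1904 names above 0 in every library. A wrong name remains possible. Only the first 1998 rows of that table, sorted by p-value, were used, and none of its values is reported.

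Genes were filtered by edgeR's filterByExpr, scaled by TMM and compared with the quasi-likelihood test without covariates (edgeR 4.0.16, R 4.3.3) with Benjamini-Hochberg adjustment. Standard errors are the log2 fold change divided by the root of the F statistic. DESeq2 1.42.0, limma 3.58.1 and the likelihood ratio test were alternatives. Log2 CPM values carry a prior count of 2. p-values measure the spread between these libraries, which the study counts as animals. The scripts were tested on simulated data. The gene, its lists and the rule for named genes (Enpp2, all matched list members and, by each of 2 correlations, the 5 named genes most like Enpp2) were chosen with earlier results of these data known. Of the marker lists, 1 gene is not reported here. The columns name no replicate of the labels.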

Additional observations from a re-analysis of the deposited data

Results flagged for a closer look

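Among 32 genes in 64 groups of 5 libraries, 4 groups held a library apart from the others by Dixon's ratio of its gap to the range of the group (critical value 0.71), where chance flags about 1 in 20 groups. No library stood apart for Enpp2. Hba-a1 and Hbb were far highest in rhCDNF library S8, with ratios of 0.962 and 0.954. Emilin2 was lowest in rhCDNF library S6 (ratio 0.724) and Lpcat2 was lowest in saline library S1 (ratio 0.840).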

How the results depend on the processing

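The log2 fold change of Enpp2 kept its direction and stayed within the spread between libraries in 19 of 20 alternatives. It ran from 0.43 to 0.49 when libraries were left out in turn. In the remaining alternative, relative to the summed microglia genes, it was 0.062 with a standard error of 0.19, so that no direction is given there. Of the whole table, 0 genes were called with any library left out, 8 by DESeq2 and 3 by edgeR's likelihood ratio test. In the pathway and marker lists 0 were called in each of the 19 alternatives. Of the within-group correlations, 0 to 4 passed when libraries were left out in turn, the 4 without S9. The within-group r with Cnp was -0.17 and with Tmem119 -0.0067 without S6 and S8. With Enpp6 it was -0.42 without S6 and S8, -0.21 without S6 and S10, and -0.17 to 0.44 when libraries were left out in turn. Leaving out S6 and S8 together was chosen after seeing the data. No paired analysis was possible because the columns carry no replicate numbers of the labels. The correlations rest on 10 libraries, and for Sox10 and Slc1a2 low counts limit what can be seen.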
